A study of Mus musculus with 6 samples.

Results

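Axon guidance ligands and receptors were followed in N2A cells, a mouse neuroblastoma line, after knockdown of *Pbcas4*. The set held 67 of the 19938 genes that the array named by a single symbol. It took every semaphorin (Sema), plexin (Plxn), Slit, Robo, ephrin (Efna, Efnb) and Eph receptor (Epha, Ephb) symbol, the netrin receptors *Unc5a* to *Unc5d*, and *Nrp1*, *Nrp2*, *Ntn1*, *Ntn4*, *Dcc* and *Neo1*. *Unc5cl*, whose symbol begins in the same way, was not taken as a netrin receptor, and *Ephb2* had no probe with a single symbol here. The rule used symbols alone. The first condition was Pbcas4 shRNA, cells transfected with a construct that expresses a short hairpin RNA against *Pbcas4* from a U6 promoter. The second was scramble, cells given a hairpin whose sequence the study's methods describe as randomly permuted. *Pbcas4* is the mouse pseudogene left where human has the protein-coding gene *BCAS4*. Each condition had 3 Affymetrix Mouse Gene 1.0 ST arrays, labelled biological replicates 1 to 3, from transient transfections harvested after 72 h. All 6 came from the same cell line and the labels name no other agent. A transient transfection leaves an unmeasured share of cells without the construct. The annotation used here names no probe for *Pbcas4*, so its level was not analysed here.

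Guidance genes code for the cues that steer a growing axon and for the receptors with which it reads them. Semaphorins signal through plexins, and most of the secreted class 3 members also need a neuropilin. Slits repel axons through Robo receptors. Netrins attract through Dcc or neogenin and repel through Unc5 receptors. Ephrins stay on the cell surface and signal to Eph receptor tyrosine kinases on a neighbouring cell. In neuroblastoma, a tumour of the sympathetic lineage, the same families also act in cell migration and survival.

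The hairpins that define the conditions are shown by the stem of each construct, the longest stretch present on both arms. They are read 5′ to 3′ from the study's oligonucleotides and all in lower case. The stems found this way differ in length and in base content, so they are not exact permutations of each other.
Pbcas4 shRNA stem, 18 bases: gatccctgttgtgacatg
Scramble stem, 17 bases: agatactcgatcccgcg

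The genomic context of the 5 guidance genes described first below is shown by the 150 bases before each start of transcription that RefSeq annotates on GRCm38.p6, with every GC box (GGGCGG or its complement on the other strand) in capitals. GC boxes are the recognition sequence of Sp-family transcription factors. *Sema4c* has 2 annotated starts.
Sema4c start 1, chr1:36558382-36558531, minus strand: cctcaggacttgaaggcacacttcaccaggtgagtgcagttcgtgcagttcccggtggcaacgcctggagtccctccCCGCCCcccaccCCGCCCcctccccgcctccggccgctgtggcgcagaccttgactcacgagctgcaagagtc
Sema4c start 2, chr1:36557558-36557707, minus strand: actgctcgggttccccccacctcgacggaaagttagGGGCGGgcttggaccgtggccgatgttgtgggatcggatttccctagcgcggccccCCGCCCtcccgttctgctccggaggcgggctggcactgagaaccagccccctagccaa
Plxna3, chrX:74328916-74329065, plus strand: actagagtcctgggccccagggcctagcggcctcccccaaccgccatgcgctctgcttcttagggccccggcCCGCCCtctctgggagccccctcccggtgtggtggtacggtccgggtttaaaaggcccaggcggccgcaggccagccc
Unc5b, chr10:60831582-60831731, minus strand: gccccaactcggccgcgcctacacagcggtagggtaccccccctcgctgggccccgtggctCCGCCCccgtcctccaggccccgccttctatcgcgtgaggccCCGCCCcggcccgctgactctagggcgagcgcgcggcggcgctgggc
Slit3, chr11:35121306-35121455, plus strand: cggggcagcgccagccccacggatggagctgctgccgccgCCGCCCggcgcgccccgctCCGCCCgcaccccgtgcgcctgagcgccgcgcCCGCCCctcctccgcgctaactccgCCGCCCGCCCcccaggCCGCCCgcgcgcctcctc
Sema7a, chr9:57939962-57940111, plus strand: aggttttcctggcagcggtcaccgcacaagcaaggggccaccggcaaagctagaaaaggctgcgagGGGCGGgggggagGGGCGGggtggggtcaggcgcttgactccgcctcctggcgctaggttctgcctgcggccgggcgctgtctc
All 6 windows held at least 1 GC box. *Slit3* had 6 matches, a pair of which overlap each other, and its window was 85.3% G or C. Among all 32851 such windows, 28.6% held a GC box, and among the 21263 of protein-coding genes 38% did. Windows were on hand for 57 of the 67 guidance genes, and 52 of their 73 windows (71.2%) held a GC box. None of the 6 windows held an E-box (CACGTG), a CRE (TGACGTCA), an E2F site (TTTCCCGC) or the left part of the RE1 element (TTCAGCACC), searched on both strands. Of all windows, 4.3% held the E-box, 1.36% the CRE, 0.603% the E2F site and 0.158% the RE1 part. These are matches of letters and not measured binding sites.

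Values are the authors' log2 expression per probe, normalized between arrays by a method that the sources used here do not name. Array medians still ran from 7.75 to 7.86. A log2 difference is the mean of the 3 Pbcas4 shRNA arrays minus the mean of the 3 scramble arrays, and levels of different genes cannot be set against each other because each has its own probe. Scramble replicate 1 stood apart from its own condition. Across all probes it correlated at 0.990 to 0.993 with the Pbcas4 shRNA arrays and at 0.987 to 0.988 with the other scramble arrays. Pbcas4 shRNA replicate 1 had the lowest correlation of any pair, 0.984 with scramble replicate 3. It correlated at 0.989 with Pbcas4 shRNA replicate 2 and at 0.992 with scramble replicate 1. Counts are therefore also given without scramble replicate 1, and some without Pbcas4 shRNA replicate 1. All 15 measured markers of sympathoadrenal neuroblasts were above the level of olfactory receptor probes, genes that these cells should not express, against 6 of 8 fibroblast, 5 of 7 endothelial, 3 of 6 glial and 1 of 6 macrophage markers. The mean of the sympathoadrenal list was 11.02 to 11.19 in Pbcas4 shRNA arrays and 11.41 to 11.63 in scramble arrays. The mean of 19 cell cycle genes was 12.22 to 12.44 in Pbcas4 shRNA arrays and 11.01 to 12.29 in scramble arrays, where replicate 1 was the highest. What part these shifts have in the guidance values was not tested. RNA from whole cultures cannot tell fewer cells of a type from less RNA per cell.

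Guidance ligands and receptors showed no difference past the test. A gene was called at an adjusted limma p under 0.05 and a log2 difference over 0.5 in size, and 0 of 67 were called, as were 0% of all genes. The lowest adjusted limma p among them was 0.34. With arrays weighted by limma, 3 were called (*Sema4c*, *Plxna3* and *Efna3*) among 1320 genes in all. At an unadjusted limma p under 0.05 there were 5 of 67 (7.46%), against 11.7% of all genes. *Sema4c*, *Unc5b*, *Plxna3* and *Slit3* were lower (4 of 67, against 5.46% of all genes) and *Sema7a* was higher (1 of 67, against 6.22%). The share of guidance genes was thus below that of all genes. Among the 52 guidance genes above the level under which 95% of olfactory receptor probes lay (15 were at or below it), the 5 made 9.62%, against 16.2% of all genes above it. Without scramble replicate 1 the count was 9 of 67 (13.4%), against 19.4% of all genes. It was 4 of 67 (5.97%) without Pbcas4 shRNA replicate 1, against 10.7% of all genes. A log2 difference over 0.5 in size was seen in 4 of the 67 (5.97%), against 5.48% of all genes, and those were *Efna3*, *Sema4c*, *Unc5b* and *Plxna3*. The 3 arrays of each condition did not overlap for 4 of the 67, against 16.8% of all genes, with 3 lower (*Sema4c*, *Slit3* and *Unc5b*), against 7.63% of all genes, and 1 higher (*Sema7a*), against 9.13%. By mean alone, 39 of 67 were lower in Pbcas4 shRNA cells (58.2%), against 49% of all genes. The count was 35 (52.2%, against 45.5%) with quantile normalization and 34 (50.7%, against 41.5%) with centring on array medians. Without scramble replicate 1 it was 48 of 67 (71.6%), against 53.6% of all genes, and without scramble replicate 3 it was 30 of 67 (44.8%), against 45.6%. The median difference was -0.03, against 0.00 over all genes. It was -0.01 with quantile normalization and 0.00 with centring, against 0.01 and 0.03 over all genes.

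**Figure D1:**
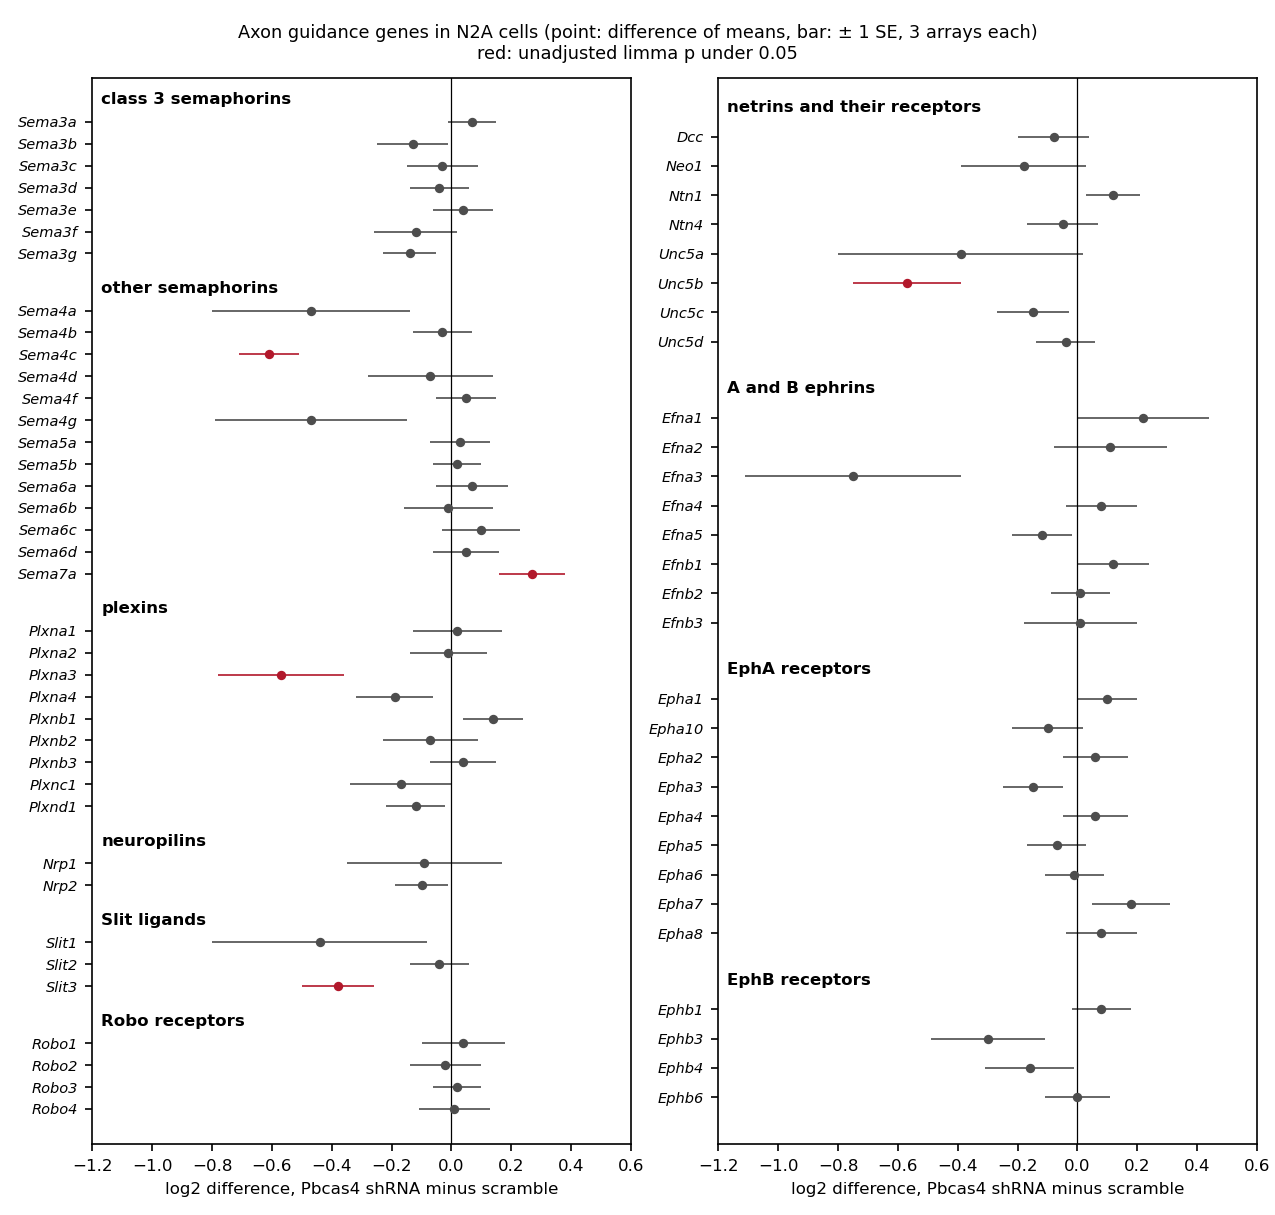
Log2 difference (Pbcas4 shRNA minus scramble, horizontal axis) for each of the 67 guidance genes, grouped by role. Points are differences of the means of 3 arrays each, bars are 1 SE, and red marks the 5 genes at an unadjusted limma p under 0.05: *Sema4c*, *Plxna3*, *Slit3* and *Unc5b* to the left of 0 and *Sema7a* to the right.

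Among the ligands, *Sema4c* had the lowest p. *Sema4c* is a transmembrane semaphorin whose receptor is plexin B2. Its levels were 10.68, 10.72 and 10.66 in Pbcas4 shRNA replicates 1 to 3 and 11.14, 11.34 and 11.41 in scramble replicates 1 to 3. The Pbcas4 shRNA arrays lay within 0.06 of each other and all lay below every scramble array. The means were 10.69 ± 0.03 in Pbcas4 shRNA cells and 11.30 ± 0.14 in scramble cells (SD, n = 3 each), a log2 difference of -0.61 (SE 0.10), or 0.656 of the scramble level. The unadjusted limma p was 0.000548 and the adjusted limma p 0.34, and an exact two-sided permutation test gave p = 0.1, the smallest that 3 against 3 arrays allow. The same exact p held for *Sema7a*, *Slit3* and *Unc5b*, whose arrays did not overlap either. Leaving out 1 array at a time gave differences of -0.69 to -0.55. The unadjusted limma p stayed under 0.05 in all 14 alternative settings. Its receptor *Plxnb2* had 11.58, 12.22 and 11.93 in Pbcas4 shRNA cells and 11.91, 12.04 and 11.97 in scramble cells, with a difference of -0.07 (SE 0.16), or 0.10 without Pbcas4 shRNA replicate 1. The arrays of *Plxnb2* overlapped fully.

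*Sema7a*, a semaphorin anchored to the membrane by a lipid that binds plexin C1 and integrin beta 1, was the only guidance gene higher at an unadjusted limma p under 0.05. It was at 7.48, 7.59 and 7.75 in Pbcas4 shRNA cells and at 7.20, 7.44 and 7.36 in scramble cells. The conditions did not overlap, though Pbcas4 shRNA replicate 1 and scramble replicate 2 were only 0.04 apart. The difference was 0.27 (SE 0.11), with an unadjusted limma p of 0.045 and an adjusted limma p of 0.483. Under 9 of 14 alternatives the unadjusted limma p stayed below 0.05, and it did not without scramble replicate 1, scramble replicate 3, Pbcas4 shRNA replicate 2, Pbcas4 shRNA replicate 3 or both arrays numbered 1. Its receptors had differences of -0.17 (*Plxnc1*, SE 0.17, and 0.02 without Pbcas4 shRNA replicate 1) and -0.11 (*Itgb1*).

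Outside class 3, 7 of 13 semaphorins had a higher mean in Pbcas4 shRNA cells and 6 a lower one. *Sema4a* and *Sema4g* each differed by -0.47 on average, with SEs of 0.33 and 0.32, but by -0.08 and -0.24 without Pbcas4 shRNA replicate 1, and varied widely between replicates as described below. Apart from these and the genes above, the remaining 9 were between -0.07 (*Sema4d*) and 0.10 (*Sema6c*), and *Sema4f* and *Sema5a* among them were at or below the olfactory receptor floor. The 7 class 3 semaphorins, secreted repellents, were between -0.14 (*Sema3g*, SE 0.09) and 0.07 (*Sema3a*, SE 0.08). *Sema3a*, *Sema3c*, *Sema3d* and *Sema3e* were also at or below that floor, 7.19 from 1035 olfactory receptor probes, where a probe may measure little but background. *Sema3f* had 8.66, 9.00 and 9.01 in Pbcas4 shRNA cells and 8.83, 9.06 and 9.15 in scramble cells, lower in each same-numbered pair by 0.17 or less. The median of the class was -0.04.

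Of the 9 plexins, *Plxna3* stood lowest. It codes for a receptor that, with neuropilin 2, responds to *Sema3f*. Its levels were 10.14, 10.81 and 10.60 in Pbcas4 shRNA cells and 10.75, 11.21 and 11.30 in scramble cells. Scramble replicate 1 lay below Pbcas4 shRNA replicate 2, so the conditions overlapped. The difference was -0.57 (SE 0.21), or 0.675 of the scramble level, with an unadjusted limma p of 0.0348 and an adjusted limma p of 0.462. The unadjusted limma p stayed under 0.05 in 9 of 14 alternatives. The difference was -0.73 without scramble replicate 1 and -0.38 without Pbcas4 shRNA replicate 1. *Nrp2* had a difference of -0.10 (SE 0.09) and *Sema3f* one of -0.12 (SE 0.14), neither at an unadjusted limma p under 0.05. The other 8 plexins were between -0.19 (*Plxna4*, SE 0.13) and 0.14 (*Plxnb1*, SE 0.10), and *Plxna4* was lower in all 3 pairs. *Nrp1*, the co-receptor for *Sema3a*, spread from 11.63 to 12.43 in Pbcas4 shRNA cells and from 11.67 to 12.36 in scramble cells, highest in replicate 1 of each, with a difference of -0.09 (SE 0.26) that was 0.07 without scramble replicate 1.

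The 3 Slit ligands had a median difference of -0.38, and -0.18 without Pbcas4 shRNA replicate 1. *Slit3* was at 11.27, 11.07 and 11.28 in Pbcas4 shRNA cells and at 11.73, 11.59 and 11.42 in scramble cells. All Pbcas4 shRNA arrays were below all scramble arrays, and scramble replicate 3 came within 0.14 of them. The means were 11.20 ± 0.12 in Pbcas4 shRNA cells and 11.58 ± 0.16 in scramble cells (SD, n = 3 each). The difference of -0.38 (SE 0.12) is 0.769 of the scramble level, with an unadjusted limma p of 0.0145 and an adjusted limma p of 0.415, and the unadjusted p stayed under 0.05 in all 14 alternatives. *Slit2* was at 12.24, 12.49 and 12.38 in Pbcas4 shRNA cells and at 12.52, 12.41 and 12.31 in scramble cells, a difference of -0.04 (SE 0.10) with overlap. *Slit1* is described below, with the genes under an unadjusted limma p of 0.05 only in the fit with the replicate number. The Robo receptors had small differences. *Robo1* differed by 0.04 (SE 0.14), or -0.02 without scramble replicate 1, *Robo2* by -0.02, *Robo3* by 0.02 and *Robo4* by 0.01. *Robo2* and *Robo3* were at or below the olfactory receptor level.

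Of the 8 netrins and netrin receptors, 7 (87.5%) had a lower mean in Pbcas4 shRNA cells, against 49% of all genes, with a median of -0.12. This fell to 5 of 8 without Pbcas4 shRNA replicate 1 (median -0.08) and without Pbcas4 shRNA replicate 2 (median -0.11). It was 6 of 8 without scramble replicate 3 (median -0.05). *Unc5b*, a netrin receptor for repulsion and one of the dependence receptors, was at 10.91, 11.51 and 11.43 in Pbcas4 shRNA cells and at 11.67, 11.86 and 12.03 in scramble cells. The conditions did not overlap. The means were 11.28 ± 0.32 in Pbcas4 shRNA cells and 11.86 ± 0.18 in scramble cells (SD, n = 3 each), a difference of -0.57 (SE 0.18) or 0.672 of the scramble level, with an unadjusted limma p of 0.0179 and an adjusted limma p of 0.422. Without Pbcas4 shRNA replicate 1 the difference was -0.39, and without scramble replicate 3 the unadjusted limma p was no longer under 0.05. *Unc5a*, its close relative, was at 9.35, 10.97 and 10.72 in Pbcas4 shRNA cells and at 10.56, 10.85 and 10.80 in scramble cells. Its mean difference of -0.39 (SE 0.41) came with 1 array, Pbcas4 shRNA replicate 1, far below the other 5, and without that array it was 0.11. *Unc5c* differed by -0.15 and *Unc5d* by -0.04. *Ntn1*, the ligand of these receptors, was the gene of the group with a higher mean, at 7.96, 7.82 and 7.92 in Pbcas4 shRNA cells and 7.74, 7.73 and 7.88 in scramble cells (difference 0.12, SE 0.09). *Neo1* differed by -0.18 (SE 0.21), or 0.03 without Pbcas4 shRNA replicate 1, *Ntn4* by -0.05, and *Dcc* by -0.08 at levels of 7.09 or less on every array.

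**Figure D2:**
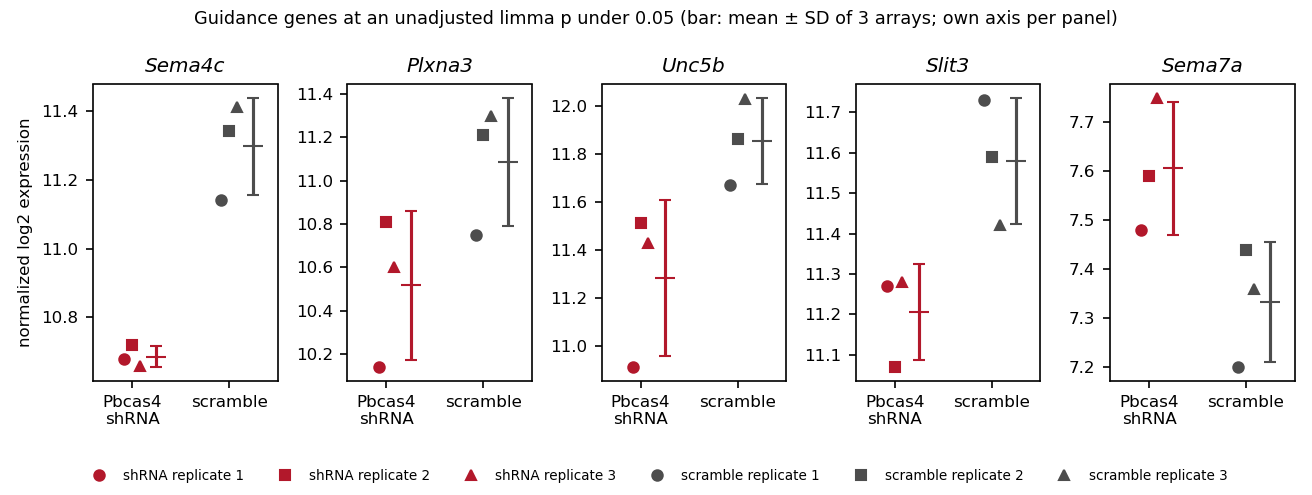
Normalized log2 expression of *Sema4c*, *Plxna3*, *Unc5b*, *Slit3* and *Sema7a* on each array, Pbcas4 shRNA (red) left and scramble (grey) right, with the mean and SD of 3 arrays beside the points. *Sema4c* lies between 10.66 and 10.72 in Pbcas4 shRNA cells and above 11.1 in scramble cells, whereas scramble replicate 1 of *Plxna3* (10.75) lies below Pbcas4 shRNA replicate 2 (10.81).

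Of 8 ephrins, 6 had a higher mean in Pbcas4 shRNA cells, but 4 without scramble replicate 1, 3 without Pbcas4 shRNA replicate 1 and 2 without both of these arrays. *Efna3* did not, and had the difference of largest size among all 67 genes. It codes for ephrin A3, a lipid-anchored ligand of EphA receptors. Its levels were 7.88, 8.77 and 8.27 in Pbcas4 shRNA cells and 8.31, 9.55 and 9.31 in scramble cells. Scramble replicate 1 lay among the Pbcas4 shRNA arrays. The difference was -0.75 (SE 0.36), or 0.595 of the scramble level, with an unadjusted limma p of 0.0815 and an adjusted limma p of 0.56. *Efna1* and *Efna4* lie next to *Efna3* on chromosome 3 with 0 other protein-coding genes between them. They had differences of 0.22 (SE 0.22) and 0.08 (SE 0.12). *Efna1* was at 7.60, 8.43 and 7.92 in Pbcas4 shRNA cells and at 7.55, 7.84 and 7.91 in scramble cells, and its difference was 0.00 without Pbcas4 shRNA replicate 2. The other 5 ephrins were between -0.12 (*Efna5*) and 0.12 (*Efnb1*).

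Eph receptors held 0 genes at an unadjusted limma p under 0.05. The 9 EphA genes lay between -0.15 (*Epha3*, SE 0.10) and 0.18 (*Epha7*, SE 0.13), with a median of 0.06. *Epha7* was at 7.46, 7.84 and 7.56 in Pbcas4 shRNA cells and at 7.43, 7.56 and 7.32 in scramble cells, higher in each pair by 0.03 to 0.29, and its difference was 0.07 without Pbcas4 shRNA replicate 2. *Epha1*, *Epha3*, *Epha4*, *Epha5* and *Epha6* were at or below the olfactory receptor level. The 4 EphB genes lay between -0.30 (*Ephb3*, SE 0.19, and -0.11 without Pbcas4 shRNA replicate 1) and 0.08 (*Ephb1*, SE 0.10, at or below that level), with *Ephb4* at -0.16 and *Ephb6* at 0.00. Over all families, 17 of 33 ligands (51.5%) and 22 of 34 receptors (64.7%) had a lower mean in Pbcas4 shRNA cells, against 49% of all genes. This split was not made for the alternatives, and 33 of the 67 genes turned sign, at 2 decimals, in at least 1.

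The same-numbered arrays shared part of their variation in these genes. In 22 of the 67 (32.8%) replicate 1 was the lowest of its condition in both conditions, against 19.3% of all genes, and in 4 (5.97%) it was the highest in both, against 18.6%. With the replicate number in the model, 10 of the 67 (14.9%) were at an unadjusted limma p under 0.05, against 14.6% of all genes, and 9 were lower, against 7.35% of all genes. The lowest adjusted limma p was then 0.255, so 0 were called. The genes that joined were *Sema4a*, *Sema4g*, *Slit1*, *Efna3* and *Ephb3*.

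All 5 were lower in Pbcas4 shRNA cells in each same-numbered pair. Their choice by the fit with the replicate number favours such agreement, so it adds no support. *Efna3* was lower by 0.43, 0.78 and 1.04 in pairs 1 to 3, its difference was -0.50 without scramble replicate 2 and -1.12 without scramble replicate 1, and the unadjusted limma p with the block was 0.00297. *Sema4g* was at 7.64, 8.54 and 8.09 in Pbcas4 shRNA cells and at 7.94, 8.89 and 8.84 in scramble cells (unadjusted limma p of 0.0131 with the block). Both replicate 1 arrays of *Sema4g* lay below the other arrays. *Slit1*, a repellent ligand for Robo receptors, was at 8.32, 9.28 and 8.97 in Pbcas4 shRNA cells and at 8.62, 9.53 and 9.76 in scramble cells (unadjusted limma p of 0.0235 with the block), and its difference of -0.44 was -0.18 without Pbcas4 shRNA replicate 1. *Ephb3*, a receptor for B ephrins, was at 7.39, 7.92 and 7.96 in Pbcas4 shRNA cells and at 7.79, 8.20 and 8.17 in scramble cells (unadjusted limma p of 0.0276 with the block). In both, the replicate 1 arrays were again the lowest of their condition. *Sema4a* was at 8.03, 9.29 and 9.06 in Pbcas4 shRNA cells and at 8.96, 9.47 and 9.35 in scramble cells (unadjusted limma p of 0.0396 with the block). It was lower by 0.93 in pair 1 and by 0.18 and 0.29 in the others. Over all 67 genes, 14 were lower in every pair (20.9%, against 18% of all genes) and 7 higher in every pair (10.4%, against 19.4%).

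**Figure D3:**
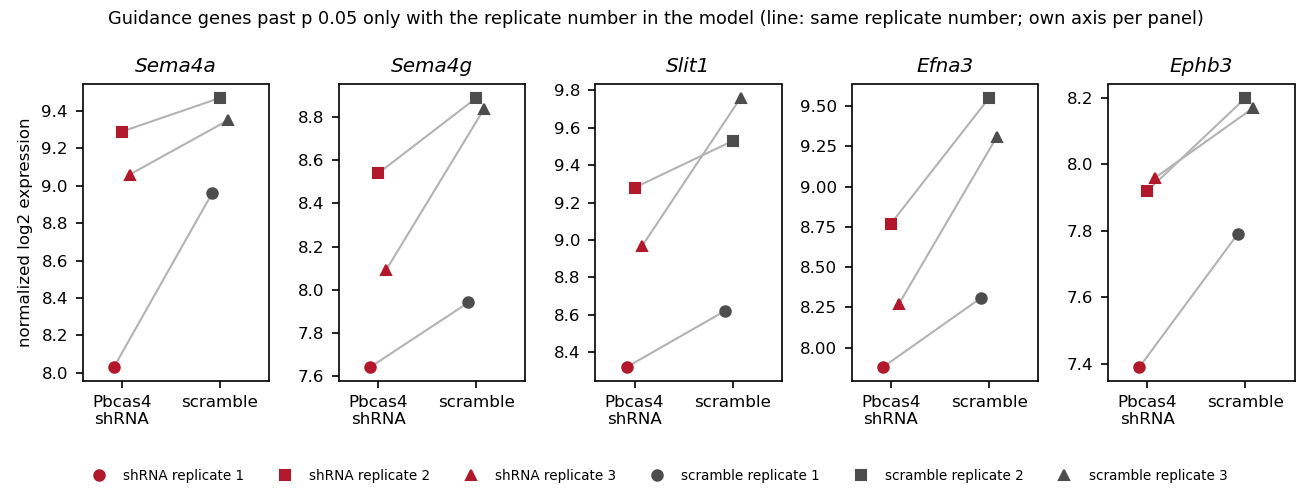
Normalized log2 expression of *Sema4a*, *Sema4g*, *Slit1*, *Efna3* and *Ephb3* on each array, Pbcas4 shRNA (red) left and scramble (grey) right, with lines joining arrays of the same replicate number. Every line runs upward to the right, which the choice of these genes by the fit with the replicate number favours. The circles of replicate 1 are the lowest of each condition, and for *Efna3* they are at 7.88 and 8.31.

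The cytoplasmic proteins that carry guidance signals were taken from a list of 52, of which 48 were measured. Of these, 46 were above the olfactory receptor level. At an unadjusted limma p under 0.05, 3 were higher and 5 lower. That is 16.7% of the 48, dim ones included, against 11.7% of all genes but 16.2% of all genes above that level. In this list 0 were called, and the lowest adjusted limma p was 0.401. Of those lower, *Arhgef11*, which codes for a protein that binds B plexins, was at 9.61, 10.23 and 9.77 in Pbcas4 shRNA cells and at 10.07, 10.70 and 10.94 in scramble cells. That is a difference of -0.70 (SE 0.26), with scramble replicate 1 inside the Pbcas4 shRNA range. *Cdk5*, a kinase of the *Sema3a* response, differed by -0.41, *Farp2*, an exchange factor bound by A plexins, by -0.36, and *Dpysl3*, a collapsin response mediator protein, by -0.27. *Fes*, a tyrosine kinase, differed by -0.23, and its unadjusted limma p of 0.0463 became 0.0591 with the replicate block. *Rras*, a small GTPase that plexins inactivate, joined under the block. It was at 10.86, 12.55 and 11.97 in Pbcas4 shRNA cells and at 12.05, 13.15 and 13.20 in scramble cells, a difference of -1.0 (SE 0.49), the largest in size of the list. It was lower in every pair, with overlap between the conditions, and its unadjusted limma p was 0.0823 without the block and 0.00117 with it. Those higher were *Mical3* at 0.41, of the MICAL oxidoreductase family, the Rac and Cdc42 effector kinase *Pak2* at 0.37, and *Arhgap39*, a GTPase-activating protein that binds Robo, at 0.27. *Pak2* was at 11.98, 11.93 and 11.83 in Pbcas4 shRNA cells and at 11.70, 11.49 and 11.42 in scramble cells, with no overlap. The median of the list was -0.01, against 0.00 over all genes.

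Other guidance cues and co-receptors were a list of 24 with 22 measured. Above the olfactory receptor level were 18 of the 22. At an unadjusted limma p under 0.05, 2 were higher and 3 lower. That is 22.7% of the 22, against 11.7% of all genes and 16.2% of all genes above that level. The last share leaves out dim genes, which the 22.7% does not. In this list 0 were called, and the lowest adjusted limma p was 0.348. *Adam10*, the protease that sheds ephrins and other guidance proteins, was at 11.33, 11.67 and 11.46 in Pbcas4 shRNA cells and at 10.99, 10.96 and 11.00 in scramble cells. The conditions did not overlap, and the difference of the means was 0.51 (SE 0.11), with an adjusted limma p of 0.348. *Flrt3*, a ligand of Unc5 receptors, was at 9.05, 8.60 and 8.66 in Pbcas4 shRNA cells and at 8.47, 8.09 and 7.93 in scramble cells, a difference of 0.61 (SE 0.18). Its arrays did not overlap either. *L1cam*, an adhesion molecule that joins neuropilin 1 in the receptor for *Sema3a*, was at 11.60, 12.29 and 11.99 in Pbcas4 shRNA cells and at 12.13, 12.72 and 12.84 in scramble cells, a difference of -0.60 (SE 0.24) with overlap at scramble replicate 1. *Dscaml1*, a Dscam-family adhesion protein, differed by -0.62 (SE 0.16) and *Rgmb*, a ligand of neogenin, by -0.35 (SE 0.11). The median of the list was 0.00.

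**Figure D4:**
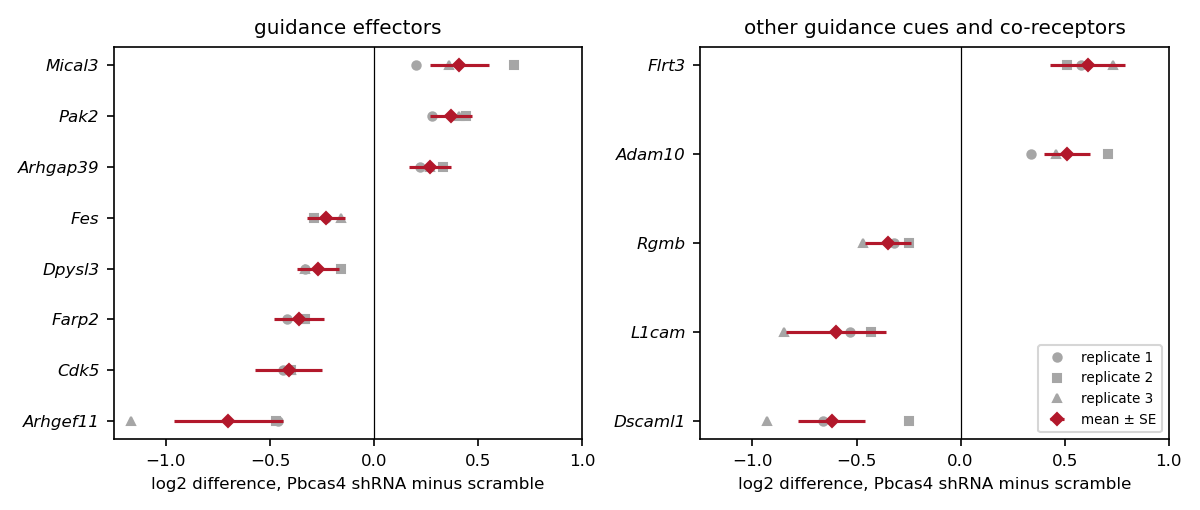
Log2 differences (Pbcas4 shRNA minus scramble) of the effectors (left) and of the other cues and co-receptors (right) at an unadjusted limma p under 0.05. Grey symbols are same-numbered pairs of arrays and red diamonds the mean with its SE; they run from -0.70 for *Arhgef11* to 0.61 for *Flrt3*, and every pair of a gene lies on the same side of 0.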

How the data were processed

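RNA of N2A cells was profiled on 6 arrays, 3 for Pbcas4 shRNA and 3 for scramble. The study's methods give 4 μg of construct and 200 ng of labelled RNA with an integrity number of at least 7. The authors deposited 1 value per probe on the log2 scale, normalized between arrays; the methods of background correction, summarization and normalization are not given in the sources used here. No further normalization was applied, and 0 columns were left unused. Of 35556 probes, 21789 carried 1 symbol, 1621 several and 12146 none. For the 5 guidance genes with several probes, the brightest probe over the 6 arrays was used, and the others differed in the same direction. That of *Sema6b* held values identical to the probe used, and the rest had an unadjusted limma p of 0.156 to 0.689.

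Differences between conditions were tested two-sided with the moderated statistic of limma 3.58.1 (R 4.3.3), with 1 term for the construct, and adjusted by Benjamini-Hochberg across every probe. The call is modelled on the study's criterion, with its variance between conditions over 0.5 read as a log2 difference. The study considered only probes past that limit, and whether it filtered before the adjustment is not stated. Here the adjustment covered every probe and the size limit was applied afterwards. The study reported differentially expressed genes from these arrays, whereas 0 were called here, and the reason for this was not tested. The fit was also run on simulated data with independent noise and changes larger than any guidance difference. That run cannot show how well differences of the size seen here are found. Each p rests on the spread between transfections, 3 in each condition, which sets the precision. Genes named are those at an unadjusted p under 0.05, the extremes of each role group and, in each direction, up to 4 of each pathway list. *Unc5a*, *Sema4a*, *Sema4g*, *Fes*, *Rras*, receptors of named ligands and some others were chosen after their values were seen. The members and lists were chosen with earlier results of these data known. Promoter sequences are from RefSeq for GRCm38.p6.

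Neither the labels nor the methods say what the replicate numbers share. Deviations from the condition means correlated across probes at 0.291, 0.137 and 0.103 between arrays of the same number, and because each exceeded 0.1 the numbers were used as pairs in a blocked fit. Pbcas4 shRNA replicate 2 and scramble replicate 3 correlated at 0.199. The other alternatives were quantile normalization, centring on array medians, a trended and robust variance, array weights, leaving out dim probes, averaging probes of 1 gene, *Unc5cl* as a member, no size criterion, and leaving out each array or both numbered 1. Figures were drawn with matplotlib 3.10.9.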

Additional observations from a re-analysis of the deposited data

How the results depend on the processing

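With the replicate number as a block, 9 guidance genes (against 7.35% of all genes) were lower at an unadjusted p under 0.05, instead of 4, *Fes* was lost and *Rras* gained among the effectors, and no other gene of the 2 pathway lists crossed 0.05 and no adjusted call changed. Array weights called 3 (*Sema4c*, *Plxna3* and *Efna3*, at adjusted limma p of 0.0171, 0.0313 and 0.0286, against up to 0.839, 0.898 and 0.945 over the alternatives), with 11 lower (15.1% of all genes) and 2 higher (17.5%) at p under 0.05. They called 1320 genes in all, gave a weight of 5.32 to Pbcas4 shRNA replicate 3 and of 0.353 to scramble replicate 1, and brought 15 of the 31 genes named by rule under an adjusted limma p of 0.05, where the alternatives without weights brought 0. Without both arrays numbered 1, 8 were lower (8.94% of all genes) and 0 higher (12.2%), and with 2 arrays a condition 23 were non-overlapping lower (29.2%) and 6 higher (26.3%). Quantile normalization and centring on array medians each gave 4 non-overlapping higher (10.7% and 12.2% of all genes). Leaving out 1 array at a time gave 2 (scramble replicate 3, 3.13% of all genes) to 8 (scramble replicate 1, 8.03%) lower and 0 to 1 higher. Non-overlapping were then 4 to 14 lower (14 without scramble replicate 1, 19.7% of all genes) and 1 to 10 higher (10 without Pbcas4 shRNA replicate 2, 16.8%).

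Among the 48 effectors, array weights gave 7 higher (17.5% of all genes) and 11 lower (15.1%). Leaving out both arrays numbered 1 gave 7 higher (12.2% of all genes), and centring on medians gave 2 lower (3.68%). Leaving out 1 array gave 1 (scramble replicate 2 or 3, 2.44% and 2.9% of all genes) to 5 (scramble replicate 1, 11.4%) higher. It gave 1 (Pbcas4 shRNA replicate 3 or scramble replicate 2, 3.14% and 2.88%) to 7 (Pbcas4 shRNA replicate 2, 5.97%) lower. The list median was then -0.06 to 0.00. Array weights gave 5 of the 22 other cues lower, against 15.1% of all genes. Small differences had no stable sign: 33 of the 67 genes turned, at 2 decimals, in at least 1 alternative. *Efna1* was at 0.00 without Pbcas4 shRNA replicate 2. *Robo1* was -0.03 with array weights, -0.08 without Pbcas4 shRNA replicate 1, -0.02 without scramble replicate 1 and -0.14 without both arrays numbered 1. *Robo2* was 0.01 with centring. Across arrays left out in turn *Efna1* ran from 0.00 to 0.41, *Robo1* from -0.08 to 0.16 and *Robo2* from -0.12 to 0.06. The medians of role groups turned too. Without Pbcas4 shRNA replicate 1 that of the plexins was 0.02, of EphA -0.03, of the ephrins -0.04 and of the Robo group -0.07. That of class 3 semaphorins was 0.05 without Pbcas4 shRNA replicate 2, of EphB 0.03 without scramble replicate 3, and of the other semaphorins -0.02 without scramble replicate 1. The causes were not tested. With 3 arrays a condition, and at dim probes, small differences cannot be seen.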
